A study of Rattus norvegicus with 40 samples.

Results

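Genes of the rat major histocompatibility complex (MHC, named RT1 in the rat), of antigen presentation and of the interferon response were followed in the kidney of hypertensive and normotensive rats. They comprised every probe whose symbol in the array's gene table begins with RT1- and all probes of 18 listed genes, 45 of 33849 probes for 33 of 12198 named genes. Of these, 14 were MHC class I probes, 7 were class II probes and 24 belonged to genes outside both classes. Kidneys came from male rats, 16 weeks old, of SHRSP/Izm, a spontaneously hypertensive and stroke-prone strain, and of the normotensive WKY/Izm. In each strain rats had received enalapril (20 mg/kg/day), candesartan (5 mg/kg/day), chlorothiazide (20 mg/kg/day), carvedilol (50 mg/kg/day), amlodipine (20 mg/kg/day), hydralazine (10 mg/kg/day) or 1 of 4 vehicles. The vehicles were H2O, Solvent A (PEG300, EtOH and NaHCO3), Solvent B (NaOH) and Solvent C (labelled MC). Each of the 20 groups had 2 CodeLink arrays, 40 in all, and each array's label named 2 animals. The study asked how different classes of antihypertensive drug change the transcriptome of the kidney.

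MHC class I molecules display peptides from inside the cell to cytotoxic T cells. The immunoproteasome (Psmb8, Psmb9 and Psmb10) cuts these peptides, the transporter Tap1/Tap2 moves them into the endoplasmic reticulum, and B2m is the light chain of the class I molecule. MHC class II molecules display peptides from taken-up material to helper T cells and are made mainly by dendritic cells, macrophages and B cells, with tubular cells able to make them in inflamed kidneys. Ciita is the master activator of class II genes, Cd74 is the invariant chain that guards the class II groove, Ctss is the protease that trims Cd74, and the DM molecule loads the peptide. Interferons raise both arms through the factors Irf1 and Irf7 and induce antiviral genes such as Mx1, Isg15 and Ifit3.

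The promoters of 6 class II genes are shown because these genes moved together between the strains. The sequences are those of RefSeq assembly GRCr8, from the reference strain and not from SHRSP or WKY, and run 5′ to 3′ along the gene. Capitals mark the Y-box TGATTGG and, upstream of it, the core GCAAC of the X-box, which are the known contact elements of class II promoters.
RT1-Da: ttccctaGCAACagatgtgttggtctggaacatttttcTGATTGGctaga
RT1-Db1: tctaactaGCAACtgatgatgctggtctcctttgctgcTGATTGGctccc
RT1-Ba: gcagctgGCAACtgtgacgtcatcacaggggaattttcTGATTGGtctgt
RT1-DOa: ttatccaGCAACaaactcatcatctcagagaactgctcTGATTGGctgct
RT1-Bb: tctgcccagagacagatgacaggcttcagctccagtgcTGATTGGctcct
RT1-DMa: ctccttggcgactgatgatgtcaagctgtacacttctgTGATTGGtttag
In order, the stretches lie at chr20:4515326-4515375 (plus strand), chr20:4560233-4560282 (minus), chr20:4576974-4577023 (plus), chr20:4758521-4758570 (minus), chr20:4604170-4604219 (minus) and chr20:4712390-4712439 (minus). From the start of GCAAC to the start of TGATTGG there were 31 bases in RT1-Da, RT1-Ba and RT1-DOa and 30 bases in RT1-Db1. TGATTGG lay in all 6 class II promoters with an entry, in 5 of 9 class I promoters and, on either strand, in 7.06% of all 33469 promoter windows, which span 250 bases before to 50 after each start. TGATTGG also lay in 1 of 6 class I pathway promoters, and in 0 of 2 of the class II pathway and 0 of 5 of the interferon genes. GCAAC lay in 4 of the 6 class II promoters and in 35.1% of all windows. It lay in 2 of 2 class II pathway, 2 of 6 class I pathway, 2 of 9 class I and 0 of 5 interferon gene promoters.

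The interferon-stimulated response element that binds interferon regulatory factors was searched on both strands as GAAA and GAAA with any 2 bases between them, a pattern that lay in 3.92% of all windows. It is shown for genes of the class I pathway and the interferon response, and for RT1-N3, which differed most between the strains. Capitals mark the match, which in all but B2m lies on the opposite strand and so reads TTTC, 2 bases, TTTC.
B2m: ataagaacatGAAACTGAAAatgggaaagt
Psmb8: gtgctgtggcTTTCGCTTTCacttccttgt
Irf7: acagtttaggTTTCATTTTCccgagacgca
Ifit3: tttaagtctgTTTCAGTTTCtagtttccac
RT1-N3: tgtgcttcagTTTCACTTTCcagtccctaa
In order, they lie at chr3:129549170-129549199 (plus), chr20:4657016-4657045 (minus), chr1:205800073-205800102 (minus), chr1:241527272-241527301 (plus) and chr20:2666272-2666301 (plus). GAAA with its repeat lay in 5 of 6 class I pathway promoters, 3 of 5 interferon gene promoters and 2 of 9 class I promoters. It lay in 1 of 2 class II pathway promoters, that of Ctss, and in 0 of 6 class II promoters. Of 33 member genes, 28 had a promoter entry. The 3 motifs were chosen after the letters had been seen, a match is no measured binding, and no match overlaps another in the stretches shown.

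All 40 arrays served 1 linear model over 24993 tested probes. An array's share of probes with a good quality flag ran from 59.3% to 72.6%. Differences are on the log2 scale and are given ± their standard error in limma. A probe passed when its p, adjusted by Benjamini-Hochberg over every tested probe, was under 0.05. Intensities are in arbitrary units in which the median probe is at 1, and values below 0.38 were set to that floor. Of the members 35 were tested: 8 of 14 class I, 7 of 7 class II and 20 of 24 other probes. The class I probes left out were those of RT1-M3-1, RT1-CE15, RT1-CE5 and RT1-CE10, 1 of the pair for RT1-T24-4, and probe GE1124806, which stands for several class I genes, and all 6 lay at the floor wherever they had a value. Among other genes the second probes of Mx1, Ifit1 and Tap2 also lay at the floor, and the second Ciita probe (GE13515) had no value in some groups. Kidney identity was clear, since Umod, Lrp2, Aqp2, Slc12a3 and Slc22a6 had a good flag on all 40 arrays.

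The strains were compared on the vehicle arrays, 8 of SHRSP against 8 of WKY, where each vehicle's arrays of both strains shared scan session and slide series. All 7 class II probes were higher in SHRSP kidneys, by a median of 0.72, as were Cd74, Ctss and Ciita. In all, 13 members were higher and 2 lower, against 11.1% and 10.7% of all tested probes (21.8% in either direction). The median difference over all tested probes was 0.00. The remaining 20 tested members did not pass.

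RT1-Da encodes the alpha chain of the rat's DR-type class II molecule. Its intensity was 46.9, 50.5 and 57.7 (lowest, median and highest) in SHRSP vehicle arrays, against 25.1, 30.8 and 38.8 in WKY vehicle arrays. The strains did not overlap, and the difference was 0.72 ± 0.05 (adjusted p = 8.08e-11). RT1-Db1, the matching beta chain, ran through 30.1, 33.3 and 38.4 in SHRSP and 18.1, 19.8 and 29.6 in WKY, again without overlap, and differed by 0.66 ± 0.05. RT1-Ba and RT1-Bb are the alpha and beta chains of the DQ-type molecule. RT1-Ba had 31.3, 42.3 and 46.6 in SHRSP and 22.3, 24.6 and 33.8 in WKY (0.65 ± 0.06), and the highest WKY arrays overlapped the lowest SHRSP arrays. RT1-Bb had 1.14, 1.92 and 2.84 in SHRSP and 0.499, 1.04 and 1.45 in WKY, a difference of 0.99 ± 0.14 with overlap.

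The peptide-loading genes moved the same way. RT1-DMa, a chain of the DM molecule, ran through 6.41, 7.60 and 10.5 in SHRSP vehicle arrays and 3.37, 4.23 and 5.36 in WKY vehicle arrays, without overlap (0.87 ± 0.10, adjusted p = 4.86e-07). Its partner RT1-DMb had 14.1, 15.8 and 17.9 in SHRSP and 9.19, 10.9 and 12.3 in WKY (0.58 ± 0.07), also without overlap. RT1-DOa, a chain of the DO molecule that restrains DM, ran through 0.888, 1.17 and 1.64 in SHRSP and 0.38, 0.621 and 0.813 in WKY. These groups did not overlap (0.94 ± 0.10), and 1 WKY array lay at the floor.

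The 3 class II genes encoded outside the MHC, on chromosomes 18, 2 and 10, were higher as well. Cd74 was at 119.7, 157 and 189 in SHRSP vehicle arrays and at 76.9, 94.7 and 111 in WKY vehicle arrays, without overlap (0.77 ± 0.06, adjusted p = 8.60e-10). Ctss, encoding cathepsin S, had 9.93, 12.7 and 14.5 in SHRSP and 7.07, 8.14 and 9.18 in WKY, without overlap (0.61 ± 0.06). Ciita (probe GE1224306) had 3.20, 3.68 and 4.48 in SHRSP and 2.17, 2.39 and 3.22 in WKY, and the 2 ranges met at their edges (0.58 ± 0.09). In all, 7 members separated the strains completely with SHRSP higher, against 2.41% of all tested probes, and 1 with SHRSP lower (RT1-N3), against 2.25%. The probe sequences were not analysed here, so whether the strains' RT1 haplotypes differ under a probe was not tested.

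**Figure D1:**
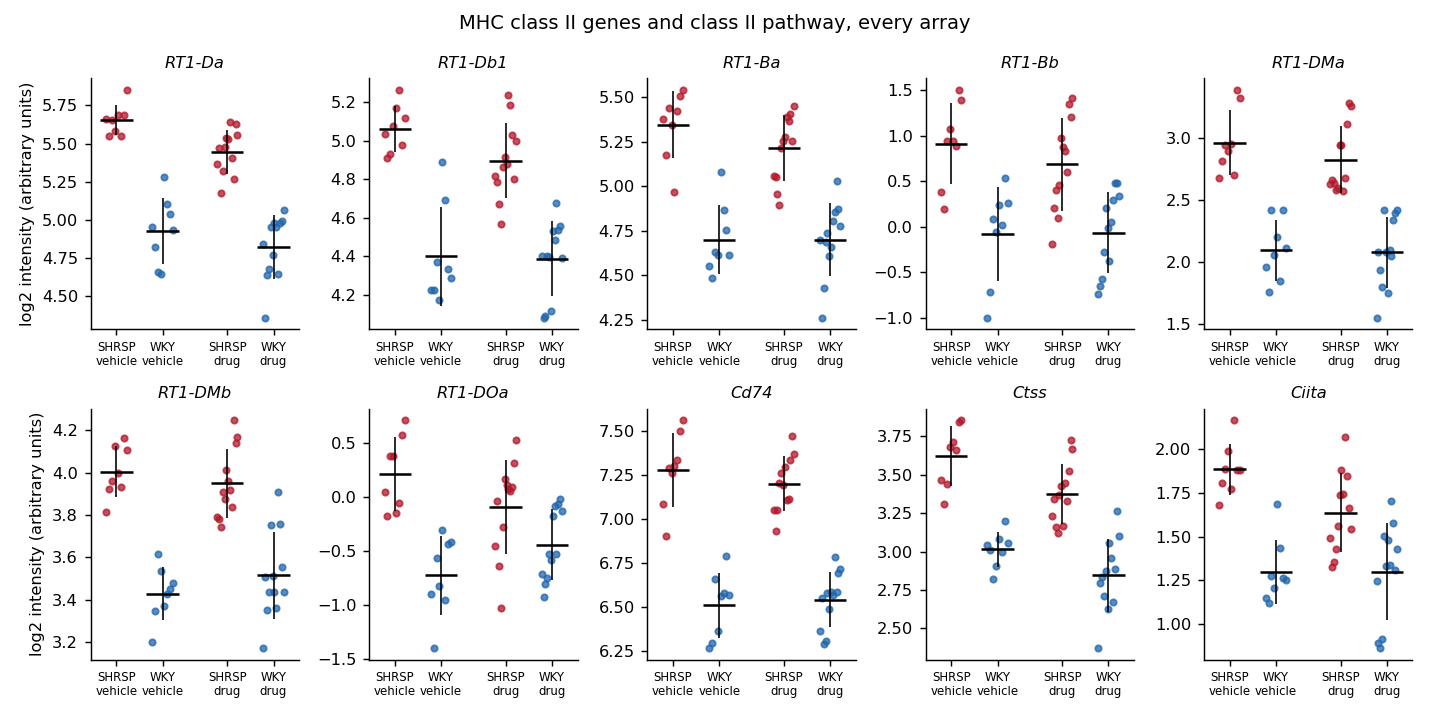
Log2 intensity of the 7 class II genes and of Cd74, Ctss and Ciita on every array (points), with the mean and SD of each group as bars, for SHRSP and WKY under vehicle (8 arrays each) and under drugs (12 arrays each). SHRSP means lie above WKY means in each panel, with SHRSP above WKY on all arrays for Cd74 and RT1-DMa.

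Class I genes gave no common direction. RT1-N3, a class Ib gene, was lower in SHRSP, with 1.76, 2.20 and 2.41 in SHRSP vehicle arrays against 4.75, 5.23 and 5.59 in WKY vehicle arrays. The groups were far apart, and the difference was -1.26 ± 0.06 (adjusted p = 1.78e-14). RT1-S3, another class Ib gene, was lower by a smaller amount (-0.21 ± 0.05), with 4.56, 5.97 and 6.66 in SHRSP and 5.63, 6.76 and 7.59 in WKY, which overlapped. RT1-CE3 was higher (0.26 ± 0.05), with 17.1, 19.4 and 20.6 in SHRSP and 14.9, 15.6 and 18.0 in WKY, which also overlapped. Neither RT1-CE12 probe passed, with 0.15 ± 0.07 and -0.12 ± 0.06, nor did the tested RT1-T24-4 probe (-0.05 ± 0.07). The 2 tested probes that stand for several class I genes, GE1229973 and GE1280096, gave 0.10 ± 0.05 and -0.12 ± 0.09 and did not pass. Some class I genes are near-identical copies of each other, so the probes of such genes may share targets.

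Of 7 tested probes of the class I pathway, Psmb8 alone passed in the vehicle arrays, at 0.20 ± 0.06 (adjusted p = 0.0312). B2m was at 11.0, 13.1 and 14.0 in SHRSP and 12.0, 13.7 and 14.5 in WKY, nearly the same range (-0.03 ± 0.05). Both Tap1 probes (0.09 ± 0.06 and 0.05 ± 0.08), Tap2 (-0.17 ± 0.10), Psmb9 (-0.04 ± 0.11) and Psmb10 (0.10 ± 0.08) did not pass. Of 10 tested interferon gene probes, Irf7 alone passed, at 0.26 ± 0.08 (adjusted p = 0.0290), with 3.65, 4.56 and 5.42 in SHRSP and 3.18, 3.61 and 4.66 in WKY. The calls of Psmb8 and Irf7 were each lost on leaving out 8 of the 16 arrays singly, while those of the 10 class II and class II pathway probes held in every such fit. Both Irf1 probes (0.11 ± 0.09 and 0.10 ± 0.06), both Mx2 probes (-0.09 ± 0.04 and 0.05 ± 0.08), Mx1 (0.04 ± 0.09), Isg15 (0.03 ± 0.08), Ifit3 (-0.08 ± 0.08), Ifit1 (0.00 ± 0.12, at the floor on 14 of 40 arrays) and Gbp2 (0.28 ± 0.16) did not pass.

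By their order on chromosome 20 in the RefSeq gene table, Tap2, Psmb8, Tap1 and Psmb9 lie between RT1-Bb and RT1-DMb. On either side RT1-Da, RT1-Db1, RT1-Ba and RT1-Bb differed by 0.65 to 0.99, and RT1-DMb, RT1-DMa and RT1-DOa by 0.58 to 0.94. The 5 tested probes of the 4 enclosed genes lay between -0.17 and 0.20. The class I gene with the large opposite difference, RT1-N3, stood at the other end of the series beside RT1-S3.

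**Figure D2:**
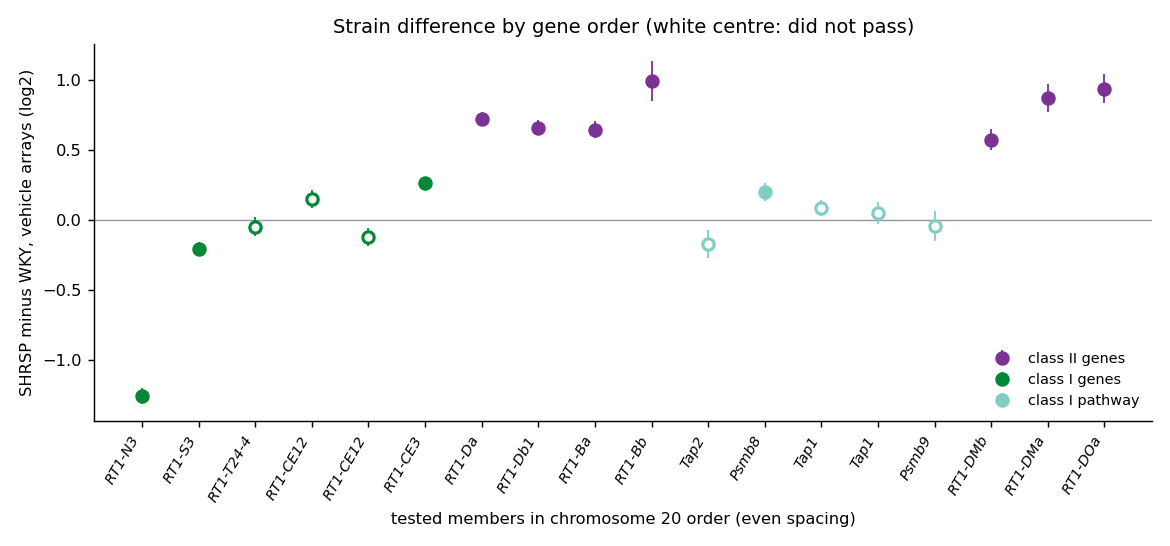
Strain difference (SHRSP minus WKY, vehicle arrays, log2, with standard errors) of the tested chromosome 20 members, evenly spaced in gene order, coloured by role. Class II genes sit between 0.58 and 0.99, the 5 probes of the class I pathway genes among them between -0.17 and 0.20, and RT1-N3 at -1.26; points with a white centre did not pass.

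The strains were compared again on the arrays from drug-treated rats, 12 of SHRSP against 12 of WKY. None of these arrays enters the vehicle means, though both comparisons share the model's estimate of the spread. The same 10 class II and class II pathway probes were higher in SHRSP, by a median of 0.52, and 12 members were higher and 5 lower, against 13.1% and 13% of all tested probes (26.1% in either direction). Cd74 was at 122, 147 and 178 in SHRSP drug arrays and 78.3, 95.2 and 110 in WKY drug arrays (0.66 ± 0.05). RT1-DMa ran through 5.94, 6.38 and 9.75 in SHRSP and 2.92, 4.23 and 5.36 in WKY (0.75 ± 0.08). Both kept the strains fully apart, as did RT1-Da with 36.1, 44.4 and 49.8 in SHRSP and 20.5, 29.9 and 33.5 in WKY (0.62 ± 0.04). These 3 compare with 1.42% of all tested probes that were higher without overlap. RT1-N3 was again lower (-1.35 ± 0.05), with 1.54, 2.05 and 2.36 in SHRSP and 4.01, 4.99 and 5.95 in WKY, alone among the members in separating the strains with SHRSP lower (1.36% of all tested probes). Over all 40 arrays Cd74 and RT1-DMa were higher without overlap, against 1.15% of all tested probes, and RT1-N3 lower, against 1.05%.

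The other lower members under drugs were RT1-S3 (-0.19 ± 0.04), Tap2 (-0.30 ± 0.08), Psmb8 (-0.16 ± 0.05) and 1 RT1-CE12 probe (-0.18 ± 0.05). The other RT1-CE12 probe was higher (0.17 ± 0.05), as was RT1-CE3 (0.17 ± 0.04), so the 2 probes of RT1-CE12 went opposite ways. No interferon gene probe passed. All drugs but enalapril had the same sessions and slide series in both strains. Over these 5 drugs, an average added after seeing the data, 12 members were higher and 3 lower, where 21.3% of all tested probes passed. The lower members were RT1-N3 (-1.38 ± 0.05), RT1-S3 (-0.17 ± 0.04) and Psmb8 (-0.19 ± 0.06), while Tap2 (-0.23 ± 0.09) and the lower RT1-CE12 probe (-0.14 ± 0.06) did not pass. Without hydralazine as well, whose arrays were split over 2 sessions, 12 were higher and 1, RT1-N3, was lower (17.8% of all tested probes passed).

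**Figure D3:**
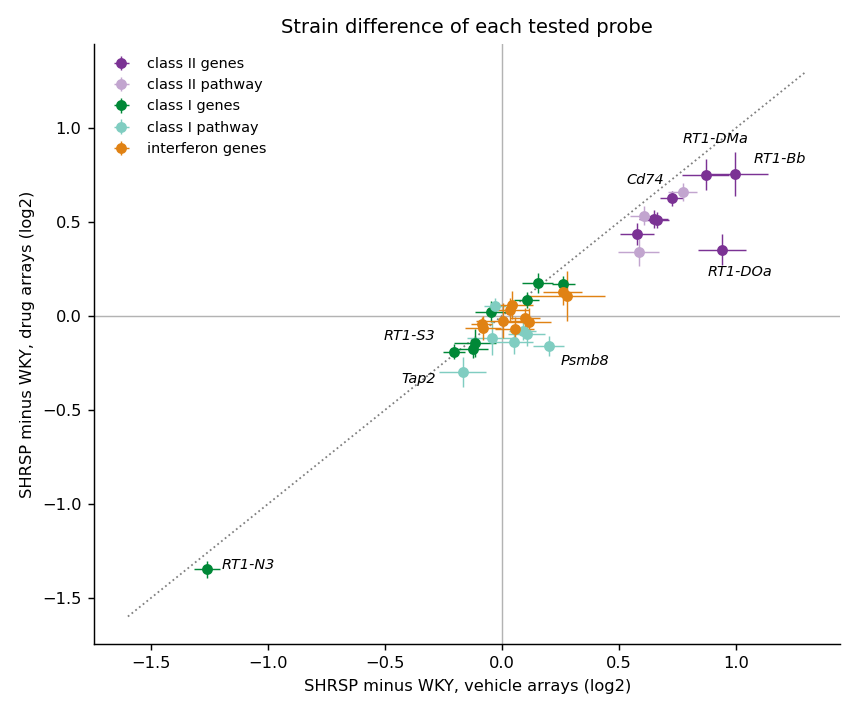
Strain difference (SHRSP minus WKY, log2) of each tested member on vehicle arrays (horizontal axis) and on drug arrays (vertical axis), with standard errors and the line of equal differences. Class II genes and their pathway lie in the upper right, RT1-N3 at -1.26 and -1.35, and class I pathway and interferon genes near 0.

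Within the 10 treatments taken singly, 2 arrays against 2, the class II genes were above 0 throughout. Cd74, RT1-Da and RT1-Db1 passed in 10 of 10 treatments, RT1-DMa in 9, RT1-Ba in 8, Ctss in 7, RT1-DMb in 4 and RT1-Bb in 3, against the shares that follow. Of all tested probes 15.6% passed under enalapril, 5.94% under candesartan, 5.6% under chlorothiazide, 6.5% under carvedilol, 9.01% under amlodipine, 6.85% under hydralazine, 10.1% under H2O, 7.39% under Solvent A, 7.97% under Solvent B and 6.9% under Solvent C. Cd74 differed by 0.52 under enalapril to 0.85 under Solvent A, and RT1-N3, which passed in 10 of 10, by -1.44 under amlodipine to -1.11 under H2O. RT1-DOa passed in 3 treatments, all vehicles, and ranged from 0.03 under amlodipine to 1.09 under H2O. Ciita passed in 3 and ranged from -0.0027 under enalapril to 0.70 under Solvent B. RT1-Bb ranged from 0.14 under enalapril to 1.15 under H2O. Of the 10 interferon gene probes 3 were higher in SHRSP under carvedilol, those of Isg15 (0.65 ± 0.16), Irf7 (0.61 ± 0.17) and Mx2 (0.35 ± 0.09, probe GE1189811), 1 was higher under H2O, and 0 passed in the other 8 treatments.

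Psmb8 had no steady strain difference, at 0.48 under H2O, where SHRSP was higher, and -0.46 under amlodipine, where SHRSP was lower. The strain difference under drugs minus that under vehicles, a contrast added after seeing the data, was -0.36 ± 0.08 for Psmb8 (adjusted p = 0.0895) and -0.59 ± 0.13 for RT1-DOa (adjusted p = 0.0814). No member passed that test, in which 0.196% of all tested probes did.

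**Figure D4:**
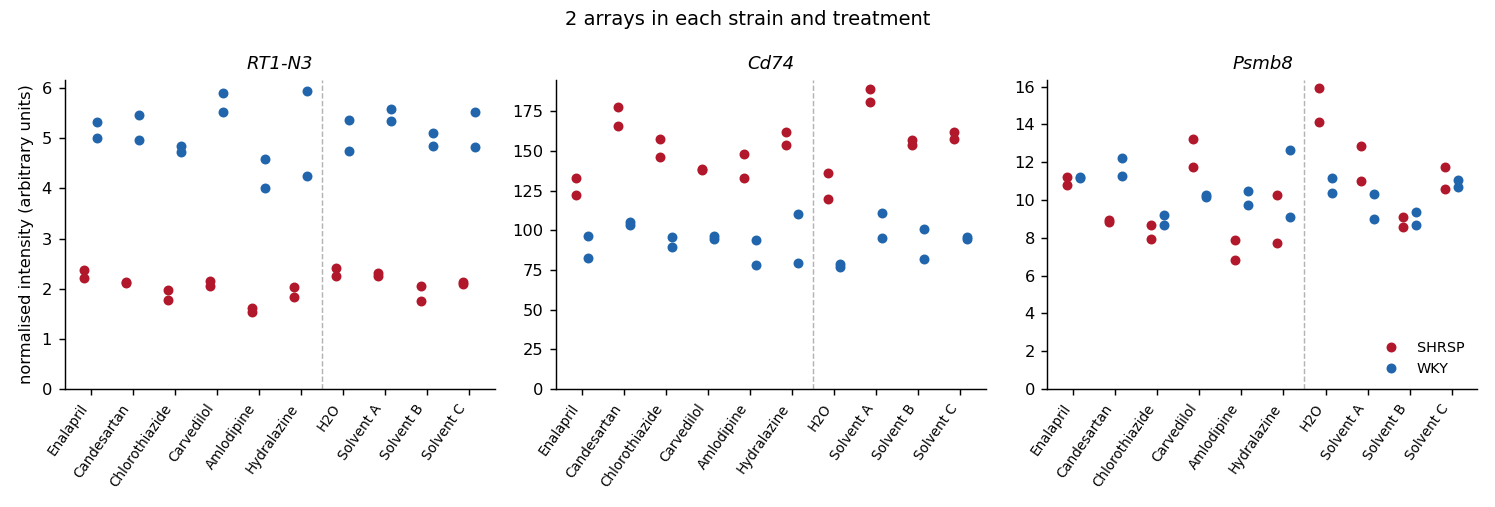
Normalised intensity (arbitrary units, axis from 0) of RT1-N3, Cd74 and Psmb8 on the 2 arrays of each strain and treatment, drugs left of the dashed line and vehicles right of it. RT1-N3 is lower and Cd74 higher in SHRSP in each of the 10 treatments, while the strains change places for Psmb8.

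Cells that carry class II molecules were followed with marker genes beside the class II result. Of 15 tested macrophage and dendritic cell probes, 11 were higher in SHRSP vehicle arrays and 0 lower, beside the 11.1% and 10.7% of all tested probes. Among them were the lysozyme gene Lyz2 (1.07 ± 0.07), Cd68 (0.53 ± 0.07), the dendritic growth factor receptor gene Flt3 (0.45 ± 0.07) and the complement genes C1qa, C1qb and C1qc (0.40 to 0.49). Their summed intensity lay between 104 and 122 in SHRSP and between 78.3 and 95.6 in WKY. Under drugs 6 of the 15 were higher and 0 lower, beside 13.1% and 13% of all tested probes, with sums of 93.6 to 118 in SHRSP and 78.9 to 102 in WKY. Of 5 T cell probes 1, Cd2, was lower in vehicle arrays, with sums of 3.52 to 4.71 in SHRSP and 4.30 to 4.91 in WKY, and the Cd4 probe had a good flag on 0 arrays. Under drugs 3 of the 5 were lower, Cd2 (-0.52 ± 0.11), Lck (-0.15 ± 0.05) and Cd3e (-0.15 ± 0.05). The 1 tested B cell probe, Cd79b, did not pass in vehicle arrays (0.07 ± 0.10), nor did any of 4 natural killer probes. Under drugs 2 of these 4 were lower, Nkg7 (-0.35 ± 0.07) and 1 Klrd1 probe (-0.24 ± 0.09). Of 9 endothelial probes 5 were higher and 2 lower in vehicle arrays, above the 11.1% and 10.7% of all tested probes. The part of these cells in the class II difference was not tested. In whole kidney RNA a larger number of cells of a type and more RNA per cell cannot be told apart.

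Other genes of the same pathways, 62 by list, had 52 tested probes for 43 genes. In vehicle arrays 4 of these probes were higher and 6 lower in SHRSP, with a median of 0.01, and under drugs 4 were higher and 11 lower. All tested probes passed at 11.1% and 10.7% in vehicle arrays and at 13.1% and 13% under drugs, so the shares of this list stood near or below the background except for the lower probes under drugs. Cxcl9, an interferon-gamma-induced chemokine gene, was lower in SHRSP by -0.36 ± 0.07 in vehicle arrays and -0.49 ± 0.06 in drug arrays. Cxcl11, a chemokine gene for the same receptor, was lower on both of its probes (-0.31 ± 0.07 and -0.23 ± 0.08 in vehicle arrays). The antiviral gene Rsad2 was higher in vehicle arrays (0.40 ± 0.09) and did not pass under drugs (0.09 ± 0.08). Pdia3, which encodes a chaperone of the class I loading complex, was higher on both probes (0.22 ± 0.06 and 0.12 ± 0.04). Adar was higher on probe GE20880 (0.29 ± 0.08) and did not pass on GE1163326 (0.06 ± 0.07). Under drugs both Adar probes passed in opposite directions, GE20880 as higher (0.20 ± 0.07) and GE1163326 as lower (-0.16 ± 0.06). Lower in vehicle arrays were also Ctsl (-0.23 ± 0.08), Cd86 (-0.28 ± 0.10) and Cd40 on probe GE16104 (-0.13 ± 0.05). On its probe GE21496 Cd40 did not pass (-0.05 ± 0.08). Under drugs Ctsl (-0.37 ± 0.06), Cd86 (-0.24 ± 0.08) and Cd40 on GE16104 (-0.26 ± 0.04) were lower again. So was Cxcl11 on both probes (-0.44 ± 0.06 and -0.39 ± 0.06). Ifngr2 (-0.28 ± 0.08), Ifi44 (-0.19 ± 0.06), Rfxank (-0.17 ± 0.06) and Dhx58 (-0.13 ± 0.05) passed as lower under drugs and not in vehicle arrays.

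Each drug was then set against its vehicle. Candesartan, an angiotensin receptor blocker, chlorothiazide, a thiazide diuretic, and carvedilol, a beta and alpha-1 adrenergic blocker, shared session and slide series with Solvent A, B and C, and enalapril, an inhibitor of angiotensin-converting enzyme, shared them with H2O in SHRSP. Averaged over both strains, 0 members passed for enalapril (2.09% of all tested probes passed), candesartan (0.052%), chlorothiazide (0.112%) or carvedilol (0.148%). At an unadjusted p under 0.05 there were 4, 0, 2 and 2 of the 35 tested members, beside 4065, 550, 1403 and 2048 of all 24993 tested probes. In this average all 20 tested probes of genes outside the MHC classes lay below 0 for candesartan, by a median of -0.06 against 0.00 over all probes. In SHRSP all of these probes lay below 0. In WKY 11 of 17 class I pathway and interferon probes and 3 of 3 class II pathway probes lay above 0. The test of the difference between the strains' responses to candesartan passed for 0 members, where 0.016% of all tested probes passed. In that test 3 of the 35 tested members had an unadjusted p under 0.05, beside 828 of all 24993 tested probes. With scan session as a block Psmb9 (-0.54 ± 0.08), Psmb10 (-0.30 ± 0.08) and Ctss (-0.38 ± 0.08) passed as lower for enalapril, at 3.58% of all probes.

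In SHRSP the mean of these 4 drugs against their vehicles (8 arrays against 8) passed for 0 members, where 0.452% of all tested probes passed. An unadjusted p under 0.05 was held by 8 of the 35 tested members, beside 2051 of all 24993 tested probes. All 10 class II and class II pathway probes lay below 0, with a median of -0.115. So did 14 of 17 class I pathway and interferon probes (median -0.115) and, in all, 30 of the 35 tested members. The same SHRSP vehicle arrays had also entered the strain comparison. Ctss gave -0.20 ± 0.06 (adjusted p = 0.176), Irf7 -0.21 ± 0.08 (0.430), Psmb8 -0.20 ± 0.06 (0.254) and Ciita -0.20 ± 0.09 (0.529). With scan session as a block Psmb8 and Ctss passed (adjusted p = 0.0423 and 0.0445), at 0.936% of all probes. Macrophage and dendritic probes moved beside them, with 13 of 15 below 0, a median of -0.19 and 0 that passed, and their part was not tested.

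In WKY the mean of candesartan, chlorothiazide and carvedilol (6 arrays against 6) passed for 0 members (0.032% of all tested probes). An unadjusted p under 0.05 was held by 2 of the 35 tested members, beside 1268 of all 24993 tested probes. The class II probes had a median of 0.01. The difference between the strains' responses to these 3 drugs passed for 0 members (0.004% of all tested probes). There 2 members and 1218 of all tested probes had an unadjusted p under 0.05. The 10 class II and class II pathway probes had a median difference of -0.12, between -0.43 and -0.02.

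**Figure D5:**
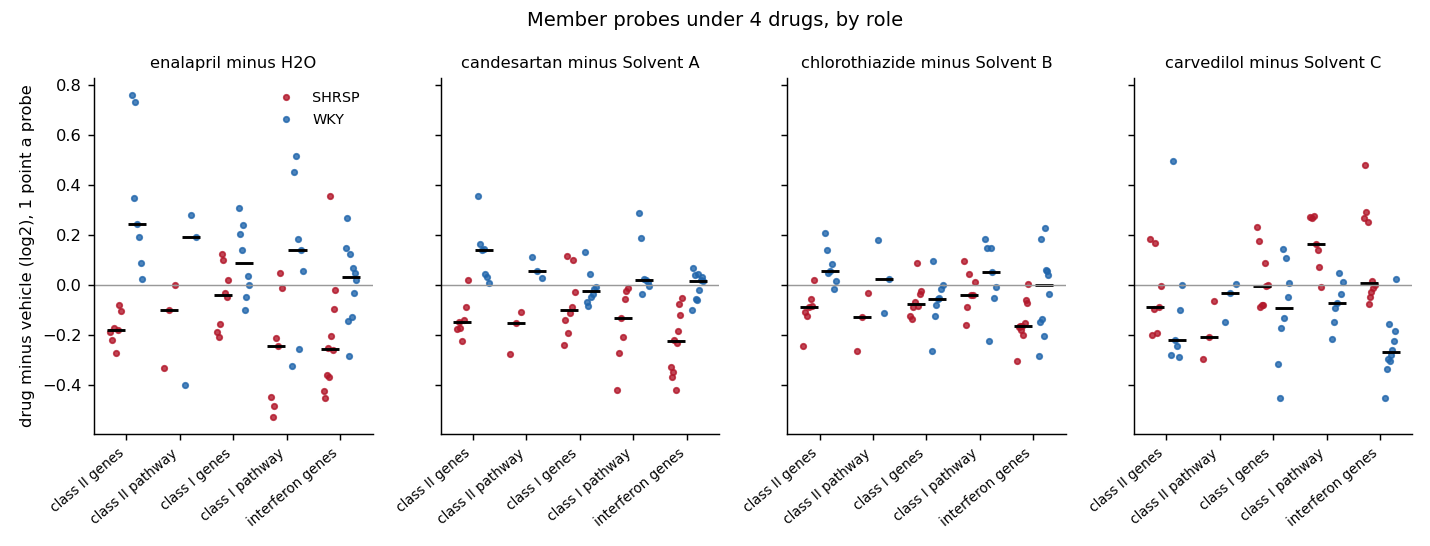
Drug minus vehicle (log2) of each tested member, 1 point a probe, by role, in SHRSP (left of each pair) and WKY, with medians as bars; each value compares 2 arrays with 2. In SHRSP the class II medians lie below 0 under all 4 drugs, and in these 4 average comparisons over both strains 0 members passed.

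Enalapril in SHRSP was within session and slide series. All 3 immunoproteasome genes were lower than in both H2O arrays: Psmb8 was at 11.2 and 10.8 under enalapril and 14.1 and 15.9 under H2O, a difference of -0.45 ± 0.13 (adjusted p = 0.114). Psmb9 was at 4.13 and 3.95 under enalapril and 5.74 and 5.56 under H2O (-0.48 ± 0.22), and Psmb10 at 8.68 and 7.48 under enalapril and 10.3 and 13.2 under H2O (-0.53 ± 0.16). None passed, where 0.98% of all tested probes passed. With session as a block all 3 did, with adjusted p of 0.0154, 0.0169 and 0.00954, at 1.85% of all probes. Over all 8 SHRSP vehicle arrays the medians of Psmb8, Psmb9 and Psmb10 were 11.4, 3.98 and 8.13, near the enalapril values. The highest of those vehicle values, 15.9, 5.74 and 13.2, were those of H2O arrays. In WKY the enalapril and H2O arrays differed in slide series, and 1 enalapril array in session as well. There RT1-DOa was higher (0.76 ± 0.21) and B2m lower (-0.33 ± 0.09), against 6.38% of all tested probes. RT1-DOa was at 0.611 and 0.957 under enalapril and 0.537 and 0.38 under H2O, and both calls depended on single arrays, with B2m losing its call without any 1 of the 4. With session as a block, the WKY enalapril array of the other session only served to estimate that session's shift. The fit thus set 1 enalapril array against the H2O arrays, still of another slide series. It gave 0.44 for RT1-DOa, -0.40 for B2m, -0.60 for Psmb9 and -0.66 for Ctss.

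No vehicle shared a scan session with amlodipine, a calcium channel blocker, or hydralazine, a direct vasodilator. The labels do not name their vehicle, and both were set by assumption against the same 4 H2O arrays, which are of another slide series. In this comparison slide series and drug cannot be told apart. Against H2O, 2 members were higher and 13 lower under amlodipine, where 15.4% and 16% of all tested probes passed in these directions (31.4% in all). Under hydralazine 6 were higher and 7 lower, with 14.1% and 15% of all probes (29.1% in all). B2m was at 11.4 and 11.1 in SHRSP under amlodipine, at 12.3 and 10.5 under hydralazine and at 13.9 and 13.1 under H2O. In WKY it was at 11.1 and 11.6 under amlodipine, at 12.0 and 10.1 under hydralazine and at 14.5 and 13.7 under H2O. B2m was thus lower on each drug array than on any H2O array of its strain, by -0.29 ± 0.07 for amlodipine and -0.30 ± 0.07 for hydralazine.

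Irf1 (probe GE21798) was lower by -0.56 ± 0.09 under amlodipine and -0.52 ± 0.09 under hydralazine, Mx1 by -0.65 ± 0.13 and -0.38 ± 0.13, Psmb9 by -0.69 ± 0.15 and -0.45 ± 0.15, and RT1-Da by -0.37 ± 0.07 and -0.23 ± 0.07. The other Irf1 probe, GE19845, did not pass under either drug. Tap2 was higher under both drugs (0.77 ± 0.14 and 0.62 ± 0.14). The remaining lower members under amlodipine were RT1-N3 (-0.40 ± 0.08), Psmb8 (-0.57 ± 0.09), Psmb10 (-0.46 ± 0.11), RT1-Db1 (-0.25 ± 0.07), RT1-Ba (-0.26 ± 0.09), Ifit3 (-0.34 ± 0.11), Isg15 (-0.31 ± 0.11) and Ctss (-0.23 ± 0.09), and RT1-CE3 was higher (0.25 ± 0.07). Under hydralazine RT1-Bb (0.74 ± 0.20), Cd74 (0.28 ± 0.09), RT1-DMb (0.29 ± 0.10), RT1-CE3 (0.25 ± 0.07) and 1 RT1-CE12 probe (0.25 ± 0.09) were higher, and Psmb8 (-0.38 ± 0.09) and Ifit3 (-0.29 ± 0.11) lower.

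Solvent B and C arrays are of the same slide series as those of both drugs, though of other sessions and other solvents, and a comparison with the mean of these 2 vehicles was added after seeing the data. Against them 9 members were lower and 0 higher under amlodipine, where 10.9% of all tested probes passed in either direction. They included 5 of 7 class II probes and 2 of 3 of the class II pathway, and all 10 of these probes lay below 0, by a median of -0.40 against 0.00 over all probes. RT1-Db1 was at 25.5 and 23.7 in SHRSP under amlodipine, against 30.5 and 33.8 under Solvent B and 36.0 and 38.4 under Solvent C. In WKY it was at 16.9 and 17.0 under amlodipine, against 20.7 and 18.1 under Solvent B and 29.6 and 25.9 under Solvent C. Both amlodipine arrays of each strain thus lay below all 4 solvent arrays of that strain, and the difference was -0.47 ± 0.06 (adjusted p = 9.26e-05).

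Ciita (probe GE1224306) was at 2.56 and 2.69 in SHRSP under amlodipine, against 3.69 and 3.97 under Solvent B and 3.42 and 4.48 under Solvent C. In WKY it was at 1.86 and 1.82 under amlodipine, against 2.43 and 2.31 under Solvent B and 3.22 and 2.70 under Solvent C. The groups did not overlap within a strain (-0.54 ± 0.11). The other lower members were RT1-Da (-0.40 ± 0.06), RT1-Ba (-0.41 ± 0.08), RT1-Bb (-0.70 ± 0.17), RT1-DOa (-0.59 ± 0.13), Ctss (-0.31 ± 0.07), RT1-N3 (-0.29 ± 0.07) and Irf1 (-0.32 ± 0.08, probe GE21798). B2m (-0.13 ± 0.06, adjusted p = 0.156), Psmb8 (-0.20 ± 0.08, adjusted p = 0.104) and Tap2 (0.07 ± 0.12) did not pass. On its other probe, GE19845, Irf1 did not pass either (-0.20 ± 0.12). Of the 15 macrophage and dendritic probes 1 was higher and 2 lower, and 11 lay below 0 (median -0.10). Their summed intensity was 111 and 101 in SHRSP under amlodipine, against 117 to 122 under both solvents, and 86.1 and 87.7 in WKY under amlodipine, against 83.2 to 95.6. Their part in the lower class II level was not tested. Under hydralazine 2 members, RT1-Da (-0.25 ± 0.06) and Irf1 (-0.28 ± 0.08, probe GE21798), were lower, where 4.53% of all probes passed. Irf1 on probe GE19845 did not pass (-0.31 ± 0.12, adjusted p = 0.135). Tap2, Psmb9 and RT1-Bb turned sign to values within 0.1 of 0.

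A fit with scan session as a block and H2O as vehicle ties the sessions of these drugs to that of H2O only through the WKY enalapril arrays. Those arrays are of the drugs' slide series, so the block does not adjust for slide series. In this fit B2m (-0.68 ± 0.14) and Ctss (-0.69 ± 0.18) passed as lower under amlodipine, where 4.98% of all probes passed. Standard errors were larger in that fit. RT1-Da (-0.63 ± 0.18, adjusted p = 0.0511), Irf1 (-0.75 ± 0.24), Ifit3 (-0.79 ± 0.26) and Tap2 (0.80 ± 0.30) did not pass at differences as large as before or larger. Psmb8 (-0.12 ± 0.17) and RT1-N3 (-0.17 ± 0.17) came out smaller, and RT1-CE3 turned sign. Under hydralazine B2m (-0.58 ± 0.13), Psmb9 (-0.75 ± 0.17) and Ctss (-0.63 ± 0.16) passed as lower, where 2.88% of all probes passed, and RT1-CE3, RT1-Bb and RT1-DMb turned to just below 0 without passing. Without the second SHRSP hydralazine array 8 members passed for hydralazine in place of 13.

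The response to amlodipine differed between the strains for 1 member, Psmb8, where 0.396% of all tested probes passed. In SHRSP it was at 7.88 and 6.81 under amlodipine and 14.1 and 15.9 under H2O (-1.03 ± 0.13). In WKY it was at 9.71 and 10.5 under amlodipine and 10.4 and 11.2 under H2O (-0.10 ± 0.13). The difference, -0.94 ± 0.18 (adjusted p = 0.0237), compares drug and vehicle effects that crossed the same session and slide change in both strains. Against Solvent B and C it was -0.46 ± 0.16 and did not pass (adjusted p = 0.396), where 0.12% of all tested probes passed. In these vehicles SHRSP had 9.08 and 8.57 (Solvent B) and 10.6 and 11.8 (Solvent C), lower than under H2O. For hydralazine the corresponding difference was -0.74 ± 0.18 and did not pass (adjusted p = 0.0828), nor did any other member, where 0.372% of all tested probes passed. With session as a block Psmb8, Psmb10 (-0.68 ± 0.14), RT1-DOa (-1.05 ± 0.25) and Tap1 (-0.68 ± 0.16, probe GE1299013) passed in the test of the strains' difference for amlodipine, at 1.2% of all probes. The block cannot change these differences and altered only their standard errors.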

How the data were processed

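Per the labels' protocols, 40 kidney RNA samples were run on 1-colour CodeLink arrays (Cy5). Each of the authors' array files holds, per the file headers, 1 intensity per probe, already normalised, with its quality flag. How the authors normalised is not stated in the labels or headers. Background had been subtracted, as 9269 values at or below 0 show, and each array's median was 1. The deposited series tables held equal intensity values and served as an alternative.

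Intensities were quantile normalised, set to at least 0.38 (over arrays, the median 1st percentile of values with a good flag), and log2 was taken. A probe was tested when every group had a value and both arrays of some group were flagged good. limma 3.58.1 in R 4.3.3 fitted 1 mean per group (20 residual degrees of freedom). P-values measure only the spread between these arrays, whose number limits the precision. Whether the 2 animals named per array were pooled is not stated. Replicates were numbered in accession order; of 780 pairs of arrays 0 held identical values. Each drug was paired with the vehicle of its scan session, and amlodipine and hydralazine, which have none, with H2O by assumption.

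Symbols came from the probe table, updated through RefSeq GRCr8; probes with several genes were given no gene name. Every called member, all 18 listed genes and every other pathway gene called in vehicle arrays are named. Members, lists, markers and this rule were chosen with earlier results of these data known.

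The code was tested on simulated data (24319 probes): 78% of planted log2 changes of 0.5 and 98% of changes of 1 were recovered for the strain comparison in vehicle arrays, 60% and 97% for candesartan, and 91% and 98% for the 4 drugs in SHRSP. Alternatives were normexp, median scaling, the authors' table, no filter, good flags on all arrays, scan session as a block (fixed, then random), array weights, eBayes with a trend and robust, only the compared groups and leaving out each array. Leaving out POOR spots, strain averages over 4 and 5 drugs, Solvent B and C as the vehicle of amlodipine and hydralazine, and the drug-minus-vehicle strain contrast were added after seeing the data. Values were read and plots drawn in Python 3.11.15 (pandas 2.3.3, NumPy 2.4.6, Matplotlib 3.10.9).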

Additional observations from a re-analysis of the deposited data

Results flagged for a closer look

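The effect of amlodipine on Psmb8 differed between the strains in a test of that difference, -0.94 ± 0.18 for SHRSP minus WKY (limma, adjusted p = 0.0237). The value for amlodipine minus H2O was -1.03 ± 0.13 in SHRSP, on 2 of 2 arrays below both H2O arrays, and -0.10 ± 0.13 in WKY. The H2O arrays of both strains differed from the amlodipine arrays in scan session and slide series. The call held in 8 of 11 alternative settings and in 4 of 8 fits that left out 1 array, with values between -1.04 and -0.46. Against Solvent B and C, of the same slide series as the amlodipine arrays, the difference was -0.46 ± 0.16 and did not pass (adjusted p = 0.396). With session as a block it was -0.94 ± 0.13 (adjusted p = 0.00122). The block cannot change this difference, because both strains' amlodipine arrays share a session, as do both strains' H2O arrays. Only the standard error changed. In that fit RT1-DOa (-1.05 ± 0.25), Tap1 (-0.68 ± 0.16, probe GE1299013) and Psmb10 (-0.68 ± 0.14) passed as well, where 1.20% of all tested probes passed.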

How the results depend on the processing

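Over the alternatives tried, 10 of 10 class II and class II pathway probes stayed higher in SHRSP in vehicle and in drug arrays (7 of the 7 that could be tested with a good flag on all 40 arrays). Members passing for strain in vehicle arrays numbered 13 to 15 on leaving out 1 array and in drug arrays 16 to 18; in drug arrays 10 passed with a good flag on all 40 arrays, in place of 17, where 22 members could be tested. Scan session as a fixed block gave 2 members for amlodipine, 3 for hydralazine and 2 for the 4 drugs in SHRSP, in place of 15, 13 and 0. For enalapril the WKY part of that fit rests on 1 array, so no count is given. For amlodipine and hydralazine it reaches H2O only through the WKY enalapril arrays and leaves slide series unadjusted. Session as a random block gave 2 for enalapril, 5 for amlodipine and 3 for hydralazine. Solvent B and C as vehicle gave 9 for amlodipine and 2 for hydralazine, and Tap2 (-0.082), Psmb9 (0.026) and RT1-Bb (-0.061) turned for hydralazine. Array weights gave 5 and only the compared groups 2 for hydralazine. On leaving out 1 array, counts ran from 11 to 14 for amlodipine, 8 to 15 for hydralazine and 0 to 1 for enalapril. They were 0 to 0 for candesartan, chlorothiazide, carvedilol, the 4 drugs in SHRSP, the 3 in WKY and their difference. With session as a fixed block RT1-CE3 turned to -0.089 for amlodipine and -0.056 for hydralazine, and RT1-Bb (-0.12) and RT1-DMb (-0.084) turned for hydralazine; the causes were not tested. Over all tested probes the count for enalapril was 523 and became 0 with only the compared groups. For amlodipine it was 7845 and became 1245 with the fixed block, and for hydralazine 7264 and 720. No paired analysis was possible because the labels give no replicate numbers and those used follow accession order; the hydralazine arrays, which share sessions between the strains, are covered by the session block. With 2 arrays a group, single drug effects near 0.5 were often beyond reach, and probes near the floor carry little signal over background.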
